A study of Bos taurus with 8 samples.

Results

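The antioxidant and glutathione enzymes described here are 41 genes that remove superoxide and peroxides, make or use glutathione, reduce oxidised thiols, break down haem or control the NRF2 response. They were found on the array by gene symbol: all 41 had at least 1 probe in the platform annotation, 73 probes in all of 43794, and every probe of a member was taken. By role, 4 genes belong to the superoxide and peroxide branch, 20 to the glutathione branch, 12 to the thioredoxin branch and 5 to the haem oxygenase and NRF2 branch.

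Superoxide leaks from mitochondrial respiration and from the P450 enzymes of steroid synthesis, which granulosa cells, the somatic cells around the oocyte, carry out under FSH. Superoxide dismutases turn it into hydrogen peroxide, which catalase, glutathione peroxidases and peroxiredoxins then reduce. Glutathione peroxidases draw electrons from glutathione, which glutathione reductase restores, whereas most peroxiredoxins draw them from thioredoxin, which thioredoxin reductase restores. KEAP1 holds the transcription factor NRF2, encoded by NFE2L2, in the cytosol for degradation, and oxidants release it to activate many of the enzymes above.

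The RNA came from granulosa cells that were aspirated by needle, along with the oocytes, from the ovaries of Holstein heifers that were sampled when 8, 11 and 14 months old. Every collection followed progesterone from a CIDR device, removal of the dominant follicle and FSH stimulation. RNA extracted from pools was amplified linearly and hybridised on 8 dual-colour arrays: 4 set a heifer at 8 months against itself at 14 months, and 4 set the same 4 heifers at 11 months against 14 months. Heifers 1 and 2 had their younger RNA labelled with Cy5, heifers 3 and 4 with Cy3. A difference of heifers 1 and 2 from heifers 3 and 4 therefore cannot be told apart from an effect of dye. The series' design text speaks of blastocysts, not granulosa cells, and this conflict about what was hybridised touches every value.

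Each log2 ratio below is the younger age minus 14 months within a heifer, after loess normalization, and each fitted change is the estimate over 4 heifers. The standard error (SE) beside it is limma's moderated SE. Its spread is pooled over all 8 arrays and is shared by both comparisons unless a spot is missing. A dye term in the fit takes out any difference between heifers labelled in opposite ways that both comparisons share. The SE can therefore be smaller or larger than the spread of the 4 heifers in 1 comparison, which the ratios themselves show. Adjusted p-values come from limma over 22692 kept probes, those whose signal exceeded background in 3 or 4 heifers for any age. A gene is read by its brightest kept probe, and 0.05 was the threshold on the adjusted p. Median probe intensities were 220 to 329 per array and channel, negative control spots averaged 163 to 297, and the SD of the log2 ratios was 0.43 to 0.79. All 17 granulosa markers were kept, with a summed intensity from 187660 to 248830 at 8 months, 119160 to 280360 at 11 months and 244080 to 258730 at 14 months. Markers of other cells stood apart on some arrays. The sum of 11 of the 12 kept squamous markers was 4950 to 139520 at 8 months, 3089 to 10205 at 11 months and 2940 to 5776 at 14 months. The sum of the 14 kept cilia markers was 3303 to 122180, 2997 to 72574 and 3076 to 4388 at these ages. The 11 kept epithelial markers summed to 97620 to 209210, 47348 to 213850 and 40499 to 91215, and the 16 kept leukocyte markers to 23231 to 44760, 12053 to 24654 and 19009 to 60540. CRNN, DSG3, PKP1 and LY6D among the squamous markers and DNAI2, RSPH1, CCDC39, ZMYND10 and SPEF1 among the cilia markers were not kept, nor were CDH1, CLDN3 and ELF3 among the epithelial and ITGAM and ITGB2 among the leukocyte markers. In such bulk RNA, more cells of a type and more RNA per cell cannot be told apart.

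A probe above background was found for 39 of the 41 members, and 58 of their 73 probes were kept. SOD3, the extracellular superoxide dismutase, and NQO1, a quinone reductase and textbook NRF2 target, had 1 probe each, which was above background on no channel. The SOD3 probe read between 161 and 268 intensity units over all channels, and the NQO1 probe between 145 and 283. Of the 39 brightest probes, 35 were above background on all 16 channels and 0 were saturated. GLRX, the cytosolic glutaredoxin, was the dimmest case, above background in 1 heifer of 4 at 14 months. Of the 41, 24 had 1 probe on the array, and 9 had 2 or more kept probes.

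At 8 months against 14 months, 2 of the 39 measured members passed the test, HMOX2 and MGST2, and both rose at 8 months. Over all 10215 genes read the same way, 4.64% passed, and 3.84% of all probes, so the members' count lies near the background. At an unadjusted p under 0.05 stood 19 of the 39 members, 48.7%, against 27.7% of all genes. The same direction in all 4 heifers was seen in 17 members: 11 were higher at 8 months (GCLC, MGST2, MGST3, HMOX2, KEAP1, PRDX4, PRDX5, PRDX6, TXN, TXN2 and TXNIP) and 6 lower (GPX1, GPX8, GSTM1, SOD1, PRDX2 and PRDX3). Over all genes, 33.6% kept 1 direction, 17.4% higher and 16.2% lower. GCLC stood at -0.01, on the other side of 0, when mean in place of median spot intensity was used. Leaving out a heifer moved the calls among the members and over the whole array. Without heifer 3, 0 members and 0% of all probes passed, and without heifer 4 only GPX2 and 0.163% of all probes did. Without heifer 1, GPX8, HMOX2 and TXNIP passed, with 5.51% of all probes. Without heifer 2, 9 members and 7.51% of all probes passed: GPX2, GSR, HMOX2, SOD2, SRXN1, TXNIP and TXNRD1 were higher, GPX3 and GSTM1 lower. The fitted changes of the members ran from -1.34 for GSTM1 to 2.16 for GPX2, and the largest spread between heifers belonged to SRXN1, with ratios from -2.33 to 2.38.

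**Figure D1:**
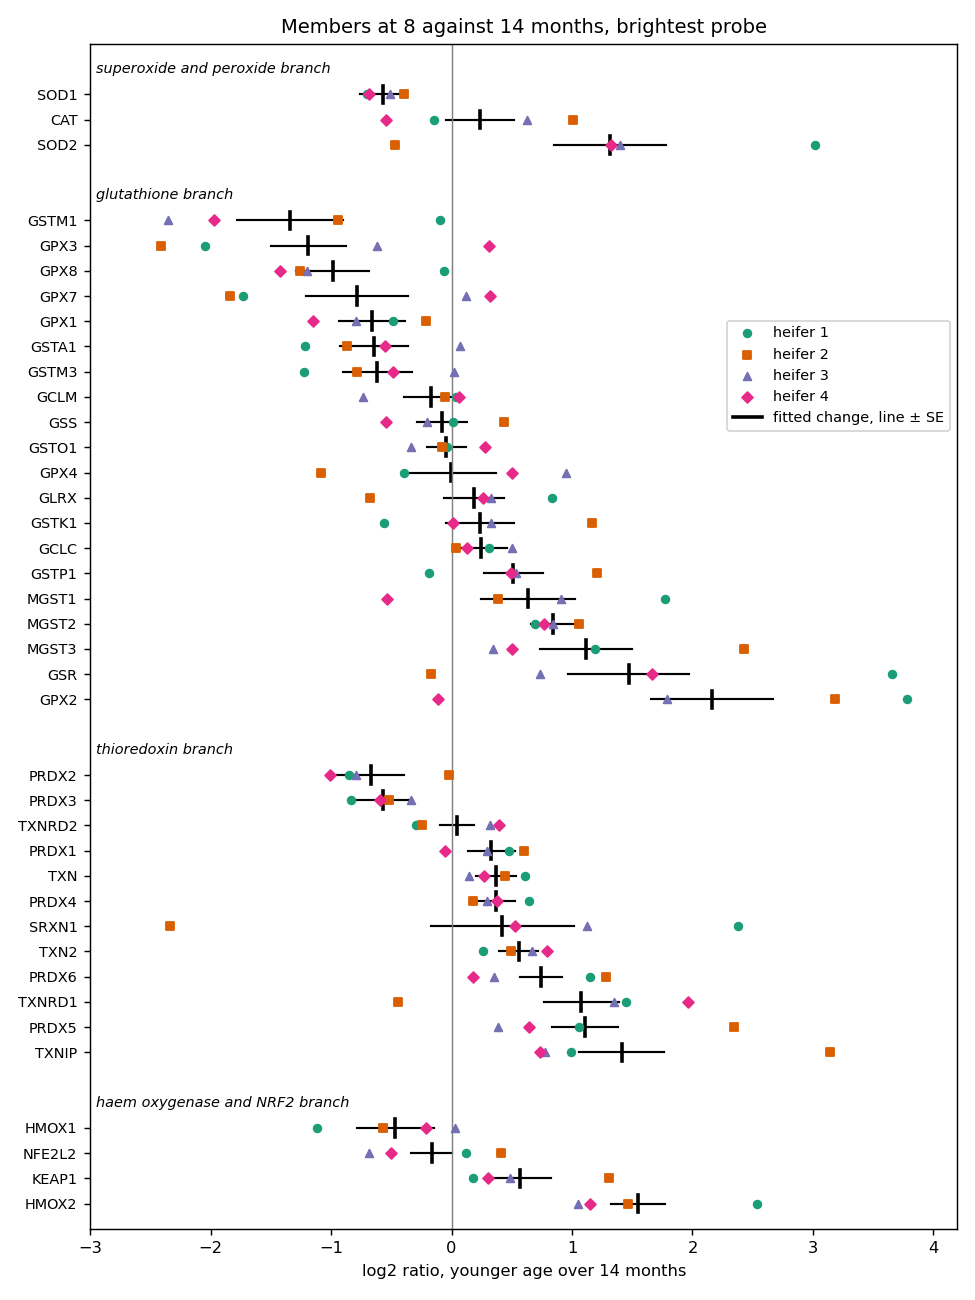
Log2 ratio of 8 over 14 months (horizontal axis) for the brightest probe of each of 39 members, by branch; points are the 4 heifers, the vertical tick is the fitted change and the line its SE. MGST2 is tight, between 0.69 and 1.06, whereas GPX2, SRXN1, GSR and SOD2 differ widely between heifers.

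HMOX2 encodes the constitutive haem oxygenase, which opens the haem ring to biliverdin, iron and carbon monoxide. Its log2 ratios of 8 over 14 months were 2.54, 1.46, 1.05 and 1.15 in heifers 1 to 4. All 4 were above 1, and heifer 1 was the highest. The fitted change was 1.55 (SE 0.22, adjusted p = 0.0142), a 2.92-fold rise, with an SD over the 4 heifers of 0.68. The median of the epithelial markers was 2.30, 1.90, 1.36 and 1.05 in the same heifers, also highest in heifer 1. That of the squamous markers, 3.50, 0.62, 1.81 and 3.21, was highest there too. At 11 months the epithelial median was 0.20, -0.43, 0.33 and 2.24, highest in heifer 4. HMOX2 was then 0.53, 0.56, -0.30 and 0.52, much alike in heifers 1, 2 and 4 and lowest in heifer 3. The log2 channel intensity of HMOX2 lay between 9.74 and 10.77 in the 4 heifers at 8 months. At 14 months it lay between 8.09 and 8.76, so the ages did not overlap. HMOX2 was past the threshold in 15 of 19 alternative settings. It was not without heifer 3 (adjusted p = 0.176), without heifer 4 (0.0886) or when the 8-month arrays with the high cilia signal, those of heifers 1 and 2, were left out (1.31, adjusted p = 0.0572). With the marker medians of squamous and ciliated cells as covariates, the change was 0.47 (adjusted p = 0.636). In that setting 0% of all probes passed, and the part of the cells with epithelial markers was not tested.

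The other measured genes of this branch did not pass. HMOX1, the inducible haem oxygenase, gave -0.47 (SE 0.32) and had ratios from -1.12 to 0.03. KEAP1, the inhibitor of NRF2, had ratios of 0.17, 1.31, 0.48 and 0.30 in heifers 1 to 4. Its fitted change was 0.57 (SE 0.26, adjusted p = 0.210), and heifer 2 stood above the others. NFE2L2 itself had ratios of 0.12, 0.41, -0.68 and -0.50, with a fitted change of -0.16 (SE 0.17). These ratios were positive in heifers 1 and 2 and negative in heifers 3 and 4, which is also the split of the dyes.

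In the glutathione branch, MGST2 was the member that passed. It encodes a microsomal glutathione transferase that can also join glutathione to leukotriene A4. Its log2 ratios at 8 months were 0.69, 1.06, 0.84 and 0.77, and its SD over heifers, 0.16, was among the smallest of the members. The fitted change was 0.84 (SE 0.18, adjusted p = 0.0458), a 1.79-fold rise. A second kept probe of MGST2 gave 0.45 (SE 0.22, adjusted p = 0.244) with ratios from 0.28 to 0.67. The call lay close to the threshold: leaving out any 1 heifer gave adjusted p-values from 0.0543 to 0.269, while the change stayed between 0.78 and 0.93. With both marker medians as covariates, where 0% of all probes passed, it was 0.93 (adjusted p = 0.353).

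The 6 glutathione peroxidases that were measured went different ways. GPX2, known best from the lining of the gut, had the largest fitted change of any member, with ratios of 3.78, 3.18, 1.79 and -0.11. Heifer 4 showed no difference, and the fitted change of 2.16 (SE 0.51, SD over heifers 1.73) missed the threshold (adjusted p = 0.0535). EPCAM, a surface protein of epithelia and 1 of 11 kept epithelial markers, had ratios of 4.08, 3.10, 0.30 and -0.80 on these arrays. The median of the 11 was 2.30, 1.90, 1.36 and 1.05, positive in heifer 4 too, unlike EPCAM and GPX2. GPX3, the secreted peroxidase, had ratios of -2.05, -2.41, -0.62 and 0.31, lowest in heifers 1 and 2, whose younger RNA carried Cy5. Its fitted change was -1.19 (SE 0.31, adjusted p = 0.0691). GPX8, a peroxidase of the endoplasmic reticulum, gave -0.99 (SE 0.30) and its relative GPX7 -0.78 (SE 0.42). GPX1, the cytosolic form, was lower in all 4 heifers, between -1.15 and -0.21, with a fitted change of -0.66 (adjusted p = 0.184). GPX4, which reduces lipid peroxides within membranes, gave -0.01 (SE 0.38), with ratios from -1.08 to 0.95.

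Among the transferases, the mu-class enzyme GSTM1 gave the lowest fitted change of any member. Its ratios were -0.10, -0.94, -2.35 and -1.97, and the change of -1.34 (SE 0.44) did not pass (adjusted p = 0.112). The probes of GSTM1 disagreed: the other kept probes gave 0.01 and -0.16. PTPRC, the pan-leukocyte marker CD45 and 1 of 16 kept leukocyte markers, had ratios of -0.45, -0.97, -2.96 and -2.24 in the same heifers. The median of the 16 was 0.47, -1.52, 0.18 and -0.16, so the list as a whole did not share the order of PTPRC. The part of leukocytes in the GSTM1 ratios was not tested. GSTM3, another mu-class gene, gave -0.62 (SE 0.29), and whether the probes tell the mu-class genes apart was not tested. GSTA1, an alpha-class transferase, gave -0.64 (SE 0.29), GSTO1 -0.04 (SE 0.16) and GSTK1 0.24 (SE 0.28). GSTP1, the pi-class transferase, gave 0.51 (SE 0.24, adjusted p = 0.232) by its brightest probe. A dimmer probe of GSTP1 passed at 1.16 (SE 0.22, adjusted p = 0.0313), with ratios of 1.10, 2.34, 0.51 and 0.68, and the remaining probe gave 0.36. The microsomal enzymes MGST1 and MGST3 gave 0.63 (SE 0.39) and 1.12 (SE 0.38, adjusted p = 0.125). MGST1 had ratios of 1.77, 0.39, 0.91 and -0.53, and leaving out 1 heifer moved its change between 0.21 and 1.09. MGST3 had ratios of 1.19, 2.43, 0.35 and 0.50, highest in heifer 2.

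Synthesis and recycling of glutathione showed no call. GCLC and GCLM, the catalytic and modifier subunits of the rate-limiting ligase, gave 0.25 (SE 0.21) and -0.17 (SE 0.22). GSS, which adds glycine in the last step, gave -0.08 (SE 0.21), and GLRX 0.19 (SE 0.25). The GLRX ratios were 0.84, -0.68, 0.33 and 0.27, negative in heifer 2. GSR, the reductase that restores glutathione, had ratios of 3.65, -0.17, 0.73 and 1.66. Heifer 1 was far above heifer 2, and the fitted change was 1.47 (SE 0.50, adjusted p = 0.122).

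In the thioredoxin branch 10 of 12 members had a positive fitted change at 8 months, against 51.1% of all genes. An unadjusted p under 0.05 was seen in 8 of 12, against 27.7% of all genes, and 0 passed by their brightest probe. PRDX6, a peroxiredoxin that also has phospholipase activity, came closest. Its ratios were 1.15, 1.28, 0.36 and 0.18, positive in every heifer, and its fitted change was 0.74 (SE 0.17, adjusted p = 0.0538). All 5 kept probes of PRDX6 were positive, from 0.74 to 1.45. A pair of the dimmer ones passed, at 1.45 (SE 0.29, adjusted p = 0.0347) and 0.97 (SE 0.21, adjusted p = 0.0435). Over all kept probes 3.84% passed. PRDX5, found in mitochondria, peroxisomes and cytosol, had ratios of 1.06, 2.35, 0.38 and 0.64. Its fitted change was 1.11 (SE 0.27, adjusted p = 0.0606), with 0.97 for a second probe, and heifer 2 was highest on both.

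TXNIP binds and inhibits thioredoxin and also limits glucose uptake. Its ratios were 0.99, 3.14, 0.78 and 0.74, and the fitted change was 1.41 (SE 0.35, adjusted p = 0.0611). Heifer 2 stood far above the other 3. Without heifer 2 the change was 0.86 and passed (adjusted p = 0.0358), and without heifer 1 it was 1.74 and passed (adjusted p = 0.0471). A second kept probe gave 0.35. The remaining one was above background in 3 heifers at 8 months, 2 at 11 months and 0 at 14 months, so it was kept through its 8-month signal alone. Its ratios at 8 months were 0.39, 1.52, -0.37 and 0.75, of mixed sign.

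TXN2, the mitochondrial thioredoxin, had ratios of 0.26, 0.50, 0.67 and 0.79 by its brightest probe. All were positive, and the fitted change was 0.56 (SE 0.16, adjusted p = 0.0893). Its other 5 kept probes ran from -0.04 to 0.32, so the probes did not share a direction. The cytosolic thioredoxin TXN gave 0.37 (SE 0.16), with ratios from 0.14 to 0.61. TXNRD1, the cytosolic thioredoxin reductase, had ratios of 1.44, -0.44, 1.35 and 1.96, with a fitted change of 1.08 (SE 0.31, adjusted p = 0.0885). Heifer 2 alone was negative. TXNRD2, its mitochondrial counterpart, gave 0.05 (SE 0.14), and SRXN1, which repairs overoxidised peroxiredoxins, 0.42 (SE 0.59).

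PRDX1 and PRDX4, peroxiredoxins of the cytosol and of the endoplasmic reticulum, gave 0.33 (SE 0.20) and 0.37 (SE 0.16). The members with a negative change were PRDX2 and PRDX3. PRDX2, a cytosolic peroxiredoxin abundant in red blood cells, had ratios of -0.86, -0.02, -0.80 and -1.01 and a fitted change of -0.67 (SE 0.28, adjusted p = 0.182). Its second probe gave 0.02 (SE 0.22), so the direction of PRDX2 rested on 1 probe. PRDX3, the mitochondrial peroxiredoxin, had ratios from -0.83 to -0.33 and a fitted change of -0.57 (SE 0.22, adjusted p = 0.156).

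The cytosolic and the mitochondrial superoxide dismutases had changes of opposite sign, and neither passed. SOD1, the copper and zinc enzyme of the cytosol, had ratios of -0.70, -0.39, -0.51 and -0.68. All 4 were negative, and the fitted change was -0.57 (SE 0.19, adjusted p = 0.113), with -0.98 (SE 0.29, adjusted p = 0.0916) for its second probe. SOD2, the manganese enzyme of mitochondria, had ratios of 3.02, -0.47, 1.40 and 1.32. Heifer 2 was the exception to the higher level at 8 months, and the fitted change was 1.32 (SE 0.46, adjusted p = 0.130). CAT, the catalase of peroxisomes, had ratios from -0.55 to 1.01 and a fitted change of 0.24 (SE 0.28).

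The median fitted change at 8 months was 0.40 over the 12 thioredoxin members, -0.03 over the 20 of the glutathione branch, 0.24 over the 3 of the superoxide branch and 0.20 over the 4 of the haem oxygenase and NRF2 branch. It was 0.24 over all 39 members and 0.01 over all genes. The thioredoxin branch holds every peroxiredoxin, PRDX6 included, whether or not thioredoxin reduces it, and TXNIP, an inhibitor of thioredoxin. Taken heifer by heifer, the thioredoxin median was 0.63, 0.31, 0.34 and 0.39, positive in all 4. The glutathione median was -0.05, -0.13, 0.22 and 0.09, and the superoxide median -0.14, -0.39, 0.62 and -0.55, both of mixed sign. The haem oxygenase and NRF2 median was 0.15, 0.86, 0.26 and 0.05. Each heifer's members share an array, so these medians describe the branches and carry no test. An unadjusted p under 0.05 was seen in 8 of 12 thioredoxin members, 8 of 20 glutathione members, 2 of 3 superoxide members and 1 of 4 haem oxygenase and NRF2 members, against 27.7% of all genes.

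**Figure D2:**
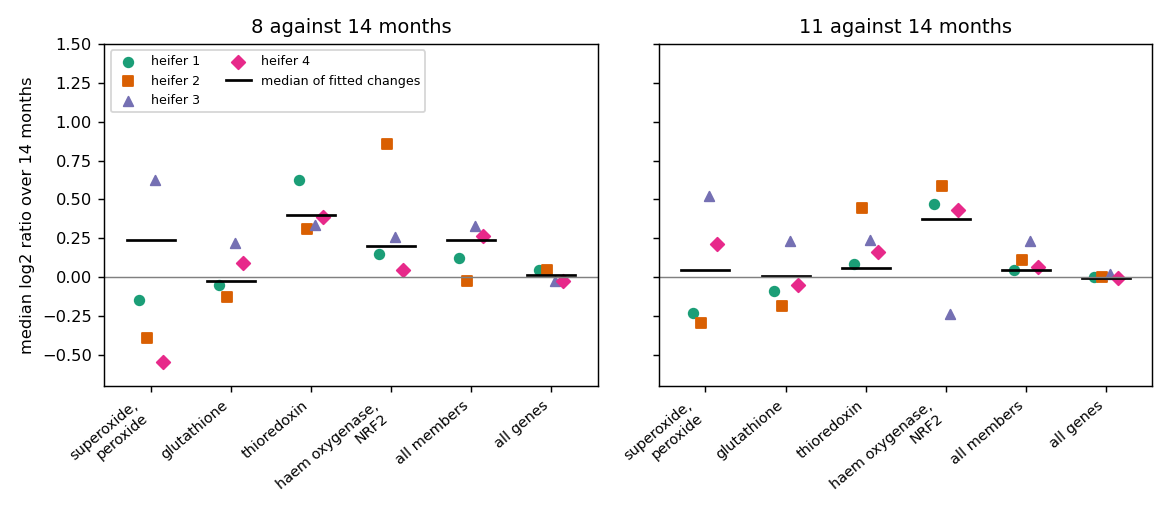
Median log2 ratio over 14 months (vertical axis) per branch, for 8 months (left) and 11 months (right); points are the medians in each of 4 heifers and the bar is the median of the fitted changes. At 8 months the thioredoxin points lie between 0.31 and 0.63, and at 11 months between 0.08 and 0.44.

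At 11 months against 14 months, 0 of 39 members passed limma's test, and 0% of all probes did. An unadjusted p under 0.05 was found for 5 members, 12.8%, against 7.42% of all genes. The same direction in all 4 heifers was seen in 7 members, GSTO1, NFE2L2, SOD2, TXN2 and TXNIP higher and GPX4 and GSTM1 lower. Over all genes 13.6% kept 1 direction, 7.21% higher and 6.38% lower. No setting that was tried gave a called member in this comparison.

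**Figure D3:**
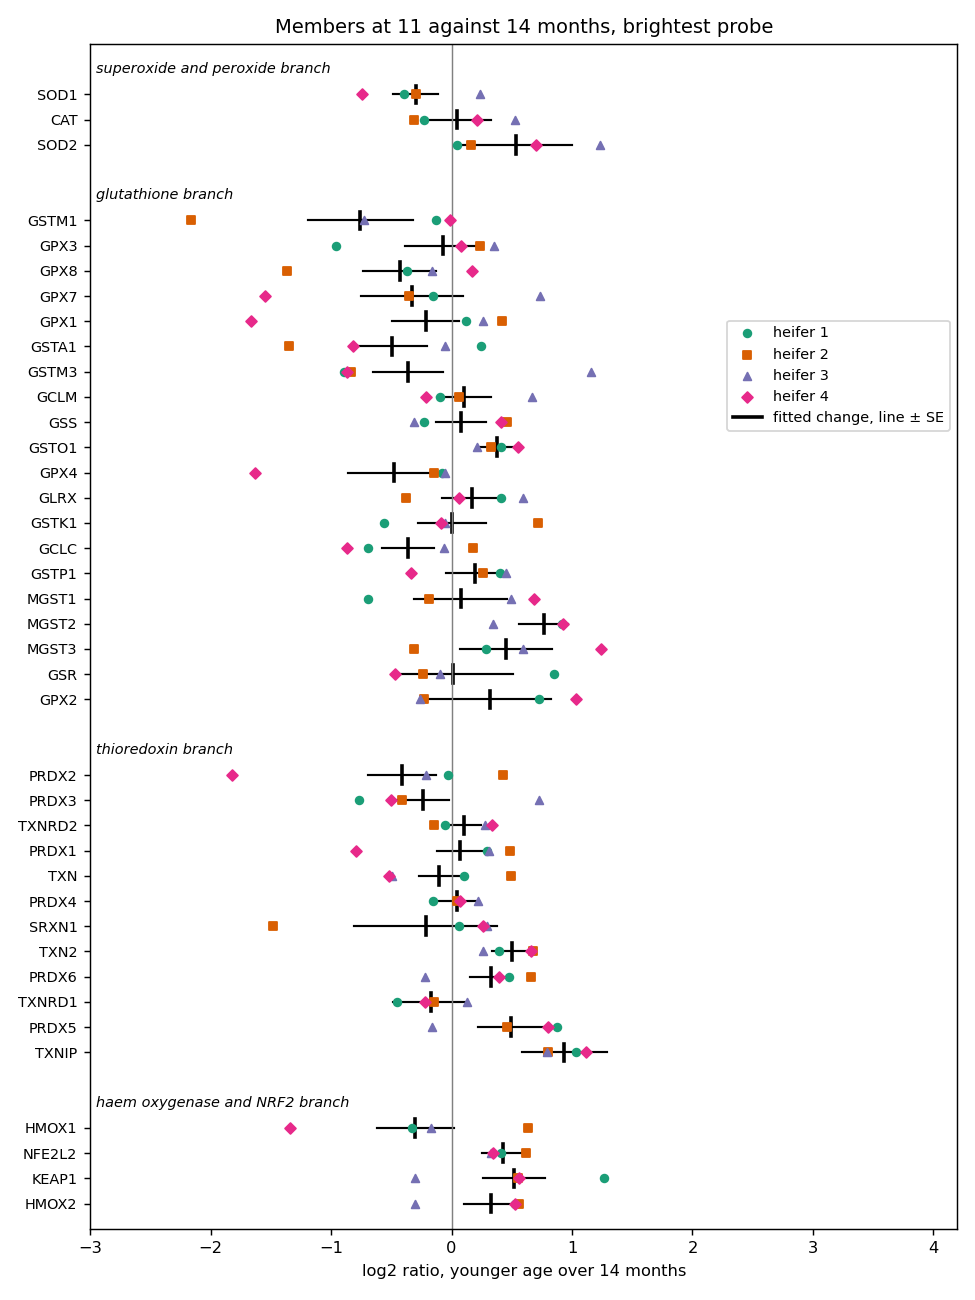
Log2 ratio of 11 over 14 months (horizontal axis) for the brightest probe of each of 39 members, by branch; points are the heifers, the vertical tick is the fitted change and the line its SE. TXNIP lies between 0.80 and 1.12 in the 4 heifers, and MGST2 has 3 points because 1 spot was left out.

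TXNIP had the largest fitted change at 11 months. Its ratios were 1.03, 0.80, 0.80 and 1.12, within a narrower range than at 8 months, and the fitted change was 0.94 (SE 0.35, adjusted p = 0.661). The other kept probes of TXNIP gave 0.07 and 0.57. TXN2 had ratios of 0.40, 0.67, 0.26 and 0.66 by its brightest probe, all positive. The fitted change was 0.50 (SE 0.16, adjusted p = 0.661). Its other kept probes ran from -0.36 to 0.12, so the probes did not share a direction.

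MGST2 gave 0.76 (SE 0.21, adjusted p = 0.661) from ratios of 0.91, 0.34 and 0.93 in heifers 1, 3 and 4. The spot of heifer 2 was marked as ignored. A second kept probe of MGST2 gave 0.26 (SE 0.22), with -0.54 in heifer 1. GSTO1, an omega-class transferase, had ratios of 0.41, 0.33, 0.21 and 0.56 and a fitted change of 0.38 (SE 0.16). NFE2L2 had ratios of 0.41, 0.62, 0.32 and 0.34 and a fitted change of 0.42 (SE 0.17). All 4 were positive here, unlike at 8 months. GSTM1 had ratios of -0.13, -2.16, -0.73 and -0.01 and a fitted change of -0.76 (SE 0.44), and PTPRC -0.40, -2.40, -0.35 and -0.01. Both were lowest in heifer 2. The other kept probes of GSTM1 gave 0.09 and -0.27.

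The members described next were named mainly for their 8-month values, a choice that by itself favours smaller changes at 11 months. Their fitted changes were smaller there, though for KEAP1 only slightly, 0.52 against 0.57. HMOX2 had ratios of 0.53, 0.56, -0.30 and 0.52, with heifer 3 the exception, and a fitted change of 0.33 (SE 0.22, adjusted p = 0.685). PRDX6 gave 0.33 (SE 0.17), PRDX5 0.49 (SE 0.27) and KEAP1 0.52 (SE 0.26), each of them negative in heifer 3. GPX2 had ratios of 0.72, -0.23, -0.26 and 1.04, a spread that spans 0, and gave 0.32 (SE 0.51). GPX3 gave -0.07 (SE 0.31), with heifer 1 the lowest at -0.96, and SOD1 -0.30 (SE 0.19), with heifer 3 alone positive. SOD2 had ratios of 0.05, 0.16, 1.23 and 0.70 and gave 0.54 (SE 0.46). PRDX2 had ratios of -0.03, 0.43, -0.21 and -1.83, of which heifer 4 was far the lowest, and gave -0.41 (SE 0.28). Leaving out 1 heifer moved it between -0.69 and -0.0021. The second probe of PRDX2 gave 0.09 (SE 0.22). Branch medians were 0.06 for the thioredoxin branch, 0.01 for the glutathione branch, 0.05 for the superoxide branch and 0.38 for the haem oxygenase and NRF2 branch, against -0.01 over all genes.

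The difference of 8 and 11 months, tested in limma as the contrast of both terms, was called for 0 of 39 members and 0% of all probes. At an unadjusted p under 0.05 stood 5 members against 6.28% of all genes. HMOX2 had the lowest adjusted p of the members here, 0.727, with a difference of 1.22 on the log2 scale. The rise of HMOX2 at 8 months is therefore not shown to differ from its change at 11 months. Both comparisons set a younger age against 14-month RNA of the same heifers, and since 8 and 11 months lie on different arrays, array set and age cannot be told apart in this contrast.

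Log2 channel intensities give the same data by age, each probe on its own scale. MGST2 ranged from 8.26 to 9.83 at 8 months and from 7.45 to 8.58 at 14 months, so these ranges overlapped although each heifer was higher at 8 months. TXNIP ranged from 13.32 to 15.96 at 8 months, from 13.31 to 14.14 at 11 months and from 12.53 to 13.17 at 14 months. By this probe, the brightest, both younger ages lay above every 14-month value of TXNIP. By a second kept probe the ages overlapped, at 8.37 to 9.82, 8.16 to 8.88 and 8.31 to 8.67. SOD2 ranged from 14.22 to 15.77 at 8 months and from 13.01 to 14.69 at 14 months, overlapping because heifer 2 was the highest at 14 months and the lowest at 8 months.

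**Figure D4:**
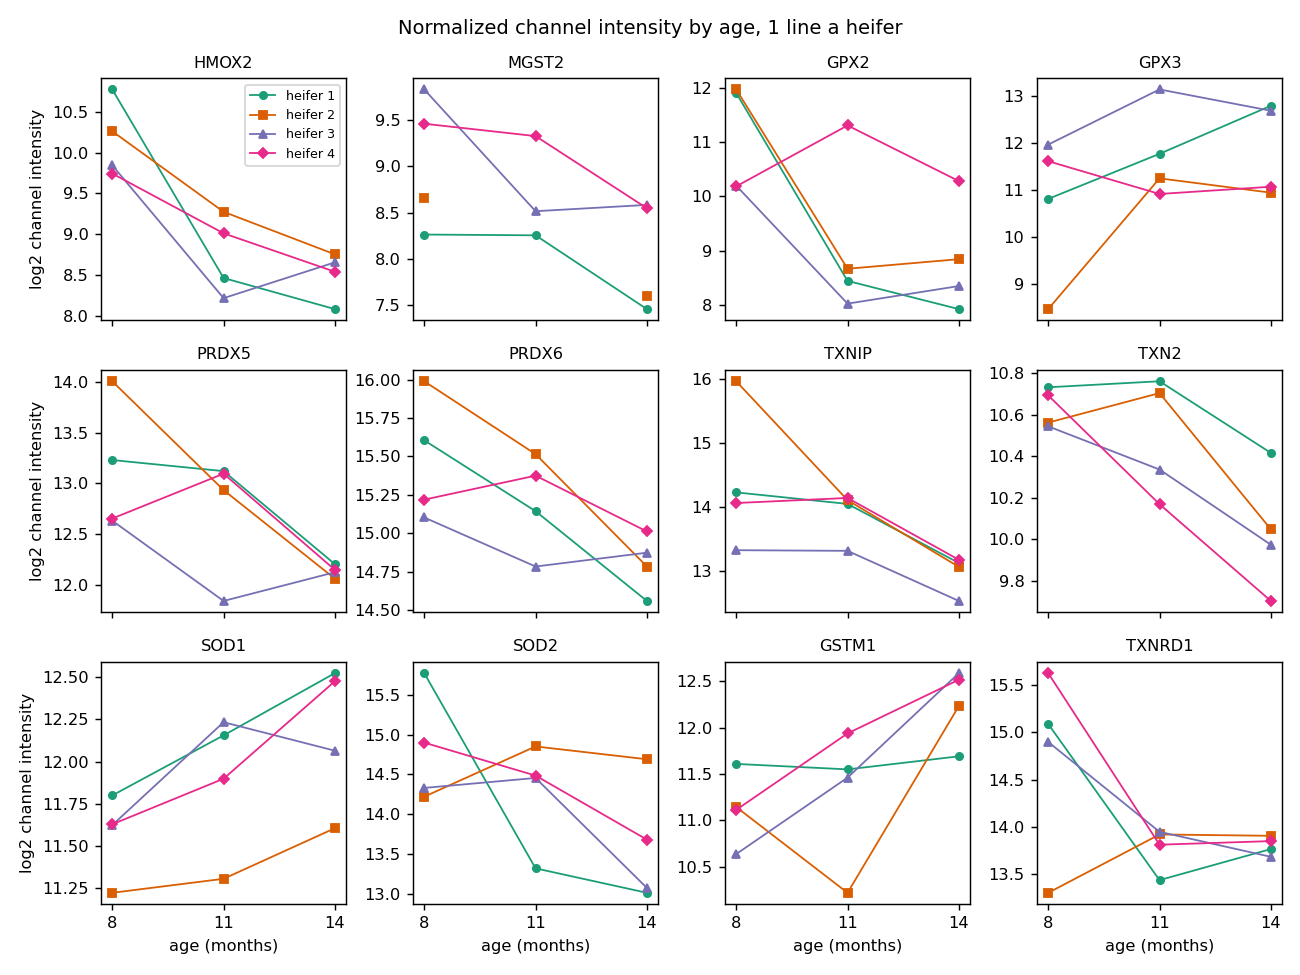
Log2 normalized channel intensity (vertical axis, a scale for each gene) against age in months for 12 members, 1 line for each of 4 heifers; 14-month values are means of 2 arrays. HMOX2 at 8 months, 9.74 to 10.77, lies above all its values at 14 months, 8.09 to 8.76, and MGST2 lacks the 11-month value of heifer 2.

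Several of the wide ratios stood beside differences in markers of other cell types. The median log2 ratio of the squamous markers at 8 months was 3.50, 0.62, 1.81 and 3.21 in heifers 1 to 4, with 8 of 12 kept markers called. SOD2, GSR, TXNRD1 and SRXN1 were positive in heifers 1, 3 and 4 and negative in heifer 2, the heifer with the lowest squamous median. Heifer 2 also had the lowest median of the 16 kept leukocyte markers, which was 0.47, -1.52, 0.18 and -0.16, with 0 called. At 11 months the leukocyte median was -0.58, -1.15, -0.13 and 0.01, and SRXN1 was again lowest in heifer 2, at -1.48. All 11 kept epithelial markers had a positive change at 8 months and 4 were called, and the epithelial median at 11 months was 0.20, -0.43, 0.33 and 2.24. The median of the 14 cilia markers was 2.88, 3.75, -0.03 and 0.09, with 0 called. PRDX5, TXNIP and MGST3 were highest in heifer 2, and GPX3 was lowest in heifers 1 and 2. At 8 months the cilia median and GPX3 thus split by heifer as the dyes did, and the part of dye was not tested. At 11 months the cilia median was 1.42, -0.09, 0.08 and 3.53, and GPX3 then stood at -0.96 in heifer 1 and 0.08 in heifer 4. The squamous median at 11 months was 0.16, 0.29, 0.05 and 0.63. With both medians as covariates at 8 months, SOD2 was -0.87, GSR -0.999 and SRXN1 -2.32, while TXNIP was 2.32 and PRDX5 1.33. None of these was called, and 0% of all probes passed in this setting. In heifers 1, 3 and 4 the squamous median was far higher at 8 than at 11 months, so it overlaps with the age term. The setting therefore cannot separate age from other cells. GSR, TXNRD1, SRXN1 and MGST3 were picked for this description after their values were seen, and the part of these cells in the ratios was not tested.

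**Figure D5:**
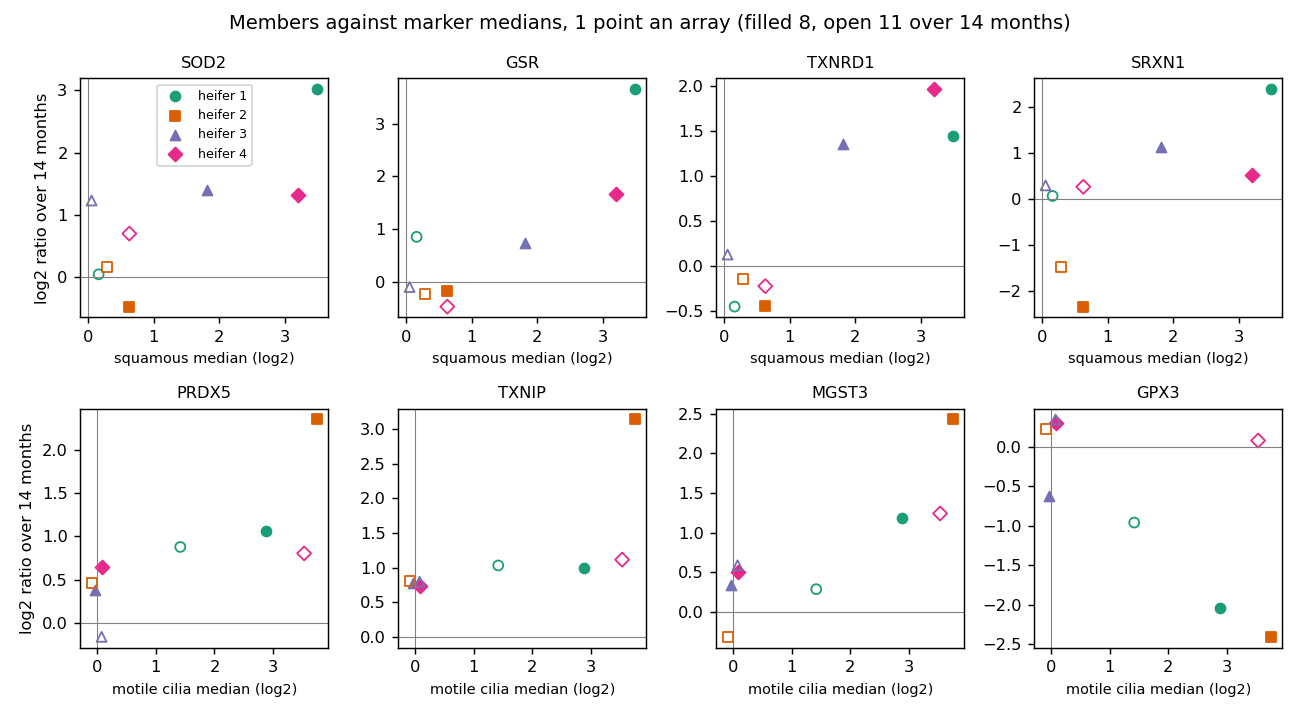
Log2 ratio over 14 months of 8 members (vertical axes) against the median log2 ratio of squamous markers (top row) or motile cilia markers (bottom row) on the same array; filled points are 8 months, open points 11 months, and each marker shape is 1 of 4 heifers. In the top row heifer 2 at 8 months, with a squamous median of 0.62, lies below 0 in all 4 panels.

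Other genes of redox metabolism, a list of 70 that holds the pentose phosphate enzymes, further transferases, metallothioneins and sestrins, were measured for 55. At 8 months 2 of the 55 passed, both higher, against 4.64% of all genes, and 20 had an unadjusted p under 0.05, 36.4% against 27.7% of all genes. TALDO1, the transaldolase of the NADPH-producing pentose phosphate pathway, had ratios of 0.63, 0.53, 1.17 and 0.91. It rose by 0.81 (SE 0.17, adjusted p = 0.0379), positive in every heifer. PTGES2, a membrane-bound prostaglandin E synthase, had ratios of 1.07, 0.49, 0.80 and 0.95 and rose by 0.83 (SE 0.18, adjusted p = 0.0424). At 11 months limma called 0 of the 55, and 0 had an unadjusted p under 0.05. The genes with the smallest p there were GGCT at -0.78, MT2A at 0.52 and OXR1 at 0.34. The median change of the 55 was 0.06 at 8 months and -0.02 at 11 months.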

How the data were processed

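The scanner tables the authors deposited hold, per the file headers, median and mean intensity of each spot in both channels and a mark for ignored spots, 22 to 59 per array. The authors also deposited log2 ratios, which followed Cy5 over Cy3 of these intensities after loess (r from 0.999 to 1.00, slopes from 0.989 to 1.00, column medians from -0.02 to 0.00083); how the authors normalized them is not stated in any source used. In R 4.3.3, limma 3.58.1 corrected the median intensities by normexp (offset 50) and normalized ratios by loess within arrays, ignored and control spots left out. Above background means over the mean of 153 negative spots plus 2 SD. Log2 ratios were fitted with terms for 8 months, 11 months and dye, heifer as a random block (correlation 0.159), 5 residual and 3.71 prior degrees of freedom, and Benjamini-Hochberg adjustment over all kept probes.

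Arrays are paired because the labels give both comparisons the same animals; within a heifer, deviations from the means of the comparisons had correlations of 0.378, 0.275, 0.446 and -0.110 for heifers 1 to 4. The number of arrays limits the precision. Of 43794 probes, 21790 had 1 gene symbol in the platform annotation and 22004 none; 2 probes under an old symbol of GLRX were not taken. On simulated data with 100 probes each, 40% of log2 changes of 1 and 76% of those of 2 at 8 months were recovered over 22692 probes.

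Members and lists were chosen with earlier results of these data known. Values in every heifer are given for called members, the 2 or 3 members of smallest p per branch, members whose probes differ in sign and those dim at an age; others so described, such as GSR, TXNRD1 and MGST3, were picked after their values were seen. Alternatives varied the deposited ratios, background, centring, filter, dye, block, weights, probes and heifers.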

Additional observations from a re-analysis of the deposited data

Results flagged for a closer look

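In 9 of 87 sets of 4 heifer ratios, the highest or lowest heifer lay apart from the other 3 by more than Dixon's critical share of the range; chance does so in about 1 of 20 sets. At 8 months, GCLM stood at -0.74 in heifer 3, the lowest, while the others lay between -0.05 and 0.06. GPX8 stood at -0.065 in heifer 1, the highest, against -1.43 to -1.20 in the others, and TXNIP at 3.14 in heifer 2.

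At 11 months, heifer 4 was the lowest in 3 members: GPX1 at -1.66, GPX4 at -1.63 and PRDX1 at -0.79. On that array the median of the cilia markers was 3.53 and that of the granulosa markers -0.90. HMOX2 was lowest in heifer 3, at -0.30, and SRXN1 lowest in heifer 2, at -1.48. GSTM3 was highest in heifer 3, at 1.16. What sets these heifers apart was not tested.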

How the results depend on the processing

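Depth of signal limits GLRX, TXNIP's dimmest kept probe, SOD3 and NQO1; 4 heifers limit the rest. The count of members called at 8 months, 2, stood beside 3.84% of all probes, and that share is given in brackets for each alternative. The count was 4 with mean spot intensity (6.14% of all probes), 5 with median centring (7.53%), 1 without the dye term (2.64%), 10 with a dye term per comparison (8.9%), 13 with array weights (15.7%), 6 with the stricter background filter (6.55%), 11 from the 4 arrays of the comparison alone (14.3%) and 0 with marker medians as covariates (0%). Without the replicate block it was 4 (4.38%). The deposited ratios gave 3 (4.35%), no background correction 3 (3.43%) and no filter on dim probes 2 (1.83%). The mean of a gene's kept probes gave 2 (3.63% of 19738 tested). Without the 8-month arrays of heifers 1 and 2 it was 2 (2.8%), and without the 11-month arrays of heifers 1 and 4 it was 2 (4.3%). Leaving out 1 heifer gave 0 to 9: 3 without heifer 1 (5.51%), 9 without heifer 2 (7.51%), 0 without heifer 3 (0%) and 1 without heifer 4 (0.163%). The cause was not tested. Median centring called 1261 probes higher and 447 lower, against 735 and 136. At 11 months and between 8 and 11 months the count was 0 throughout. HMOX2 passed in 15 of 19 alternatives, MGST2, GPX2 and PRDX6 in 9, TXNIP in 8, PRDX5 and GPX8 in 5.

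With the covariates the glutathione median at 8 months was 0.262 and the haem oxygenase and NRF2 median 0.584; without the 8-month arrays of heifers 1 and 2 the latter was 0.575. Without the 11-month arrays of heifers 1 and 4 the median of all members at 11 months was 0.144. Single members were followed over the settings for all 39 at 8 months. At 11 months only GPX2, GPX3, GSTM1, GSTO1, HMOX2, KEAP1, MGST2, NFE2L2, PRDX2, PRDX5, PRDX6, SOD1, SOD2, TXN2 and TXNIP were followed. Among these, 41 values changed sign, none of them called. With the covariates these were, at 8 months, GLRX -0.56, GPX1 0.29, GPX4 0.76, GPX7 0.39, GSR -0.999, GSTA1 0.23, GSTM3 0.38, HMOX1 0.70, MGST1 -0.41, PRDX2 0.59, SOD2 -0.87 and SRXN1 -2.32, and at 11 months GPX2 -0.36, GPX3 0.21 and PRDX2 0.028. Without the 8-month arrays of heifers 1 and 2 they were CAT -0.28, GPX4 1.09, GPX7 0.29, HMOX1 0.37, MGST1 -0.33 and MGST3 -0.038. Without the 11-month arrays of heifers 1 and 4 they were GPX2 -0.24, GPX3 0.29 and PRDX2 0.11. Mean intensity turned GCLC to -0.012 and GPX4 to 0.16, array weights GPX4 to 0.26 and median centring GSTO1 to 0.055.

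Leaving out 1 heifer, the values that changed sign ranged at 8 months from -0.088 to 0.58 for CAT, -0.26 to 0.0034 for GCLM, -0.17 to 0.53 for GLRX, -0.35 to 0.32 for GPX4, -0.24 to 0.010 for GSS, -0.17 to 0.65 for GSTK1, -0.19 to 0.10 for GSTO1 and -0.64 to 1.45 for SRXN1. Among the members followed at 11 months they ranged from -0.11 to 0.77 for GPX2 and from -0.43 to 0.068 for GPX3.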
